A study of Mus musculus with 16 samples.

Results

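A set of 10 genes that many cells switch on soon after a stimulus was followed in mouse small intestinal organoids, epithelial cultures that grow from crypts. The genes were 5 dual-specificity phosphatases (Dusp1, Dusp4, Dusp5, Dusp6 and Dusp16) and 5 other immediate early genes (Egr1, Ier2, Ier3, Klf6 and Zfp36). They were picked by symbol with earlier results of these data known, and all 10 were present among the 23847 rows of the expression table. RNA sequencing covered 16 libraries in 4 groups of 4, all of C57BL/6 background and day 3 of culture: unstimulated f/f organoids, the wild type of the series; unstimulated dIEC organoids, which lack ATG16L1, an autophagy protein; and each genotype after 2 hours with 20 ng/ml murine tumour necrosis factor (TNF). Which driver removed Atg16l1 in dIEC, and whether a library came from 1 animal or a pool, the labels do not say. Nor do they name separate animals or cultures behind the 4 libraries of a group, so a p-value here reflects the spread among libraries, which may be technical.

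Immediate early genes are transcribed without new protein synthesis when a receptor activates MAP kinases, NF-kB or both. The kinases ERK, JNK and p38 phosphorylate transcription factors that act on these genes, among them the ternary complex factors that bind DNA together with serum response factor. Dual-specificity phosphatases remove the activating phosphates from the same kinases and so close a feedback loop. ZFP36 closes another, because it binds AU-rich elements of short-lived messages, that of Tnf included, and speeds their decay.

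A set of 4 promoters is shown because they hold matches to different motifs in genes that differed in response. Each runs from 250 bases before to 50 after the RefSeq start of the gene in GRCm38.p6, read 5′ to 3′ on the strand of the gene, and capitals mark motif matches. They lie at chr17:35821463-35821762 on the plus strand (Ier3), chr17:26508423-26508722 on the minus strand (Dusp1), chr19:53528895-53529194 on the plus strand (Dusp5) and chr7:28379179-28379478 on the minus strand (Zfp36).
Ier3: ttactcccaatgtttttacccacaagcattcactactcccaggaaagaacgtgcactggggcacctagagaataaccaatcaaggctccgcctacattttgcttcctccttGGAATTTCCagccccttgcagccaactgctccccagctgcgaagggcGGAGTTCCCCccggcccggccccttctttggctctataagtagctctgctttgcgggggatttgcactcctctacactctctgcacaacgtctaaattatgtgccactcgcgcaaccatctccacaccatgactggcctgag
Dusp1: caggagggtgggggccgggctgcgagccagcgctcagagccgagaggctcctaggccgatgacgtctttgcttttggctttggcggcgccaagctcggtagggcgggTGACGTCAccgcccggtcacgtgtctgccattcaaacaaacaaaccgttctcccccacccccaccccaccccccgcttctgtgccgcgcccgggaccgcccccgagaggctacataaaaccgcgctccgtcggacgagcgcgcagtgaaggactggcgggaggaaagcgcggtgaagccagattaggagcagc
Dusp5: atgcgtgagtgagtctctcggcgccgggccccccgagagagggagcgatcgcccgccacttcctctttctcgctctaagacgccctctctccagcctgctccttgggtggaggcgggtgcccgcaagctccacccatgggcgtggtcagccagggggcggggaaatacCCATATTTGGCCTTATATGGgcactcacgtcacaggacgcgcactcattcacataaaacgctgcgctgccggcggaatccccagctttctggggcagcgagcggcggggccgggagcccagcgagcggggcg
Zfp36: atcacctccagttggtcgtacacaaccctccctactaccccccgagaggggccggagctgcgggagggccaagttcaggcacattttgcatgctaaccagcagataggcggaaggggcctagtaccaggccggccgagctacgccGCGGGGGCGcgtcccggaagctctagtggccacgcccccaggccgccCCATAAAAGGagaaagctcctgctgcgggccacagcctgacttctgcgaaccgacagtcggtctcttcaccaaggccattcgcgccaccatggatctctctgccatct

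Ier3 held the NF-kB core GGAATTTCC 139 bases before its start. It also held a match to the NF-kB consensus on the opposite strand, printed here as GGAGTTCCCC, 92 bases before the start. Dusp1 held the cyclic AMP response element TGACGTCA 143 bases before its start. Dusp5 held a pair of adjoining CArG boxes, the site of serum response factor, as CCATATTTGG and CCTTATATGG. Zfp36 held a CArG box, CCATAAAAGG, 58 bases before its start and an EGR site, GCGGGGGCG, 105 bases before it. Both strands were searched for 6 motifs, and these 4 promoters were picked after the matches were seen. Of the other members with a promoter in the table, Dusp6 held the NF-kB core and Dusp16 an EGR site, both read on the opposite strand. Klf6 held no match in this window. Of 32851 mouse promoters of the same length, 1.63% held a CArG box, 0.317% the NF-kB core, 4.51% the NF-kB consensus, 1.79% the letters TGACGTCA, 7.81% the AP-1 letters TGANTCA and 5.55% the EGR letters GCGNGGGCG. The NF-kB core and consensus can overlap in other promoters, although the 2 matches of Ier3 did not. A match describes letters only and is not evidence of binding.

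Expression is given in FPKM, a fragment count divided by transcript length and library size, which is a level per length and can be compared between genes. The depth behind each value is unknown. The libraries were epithelial by their markers: all 9 epithelial markers reached a mean of 1 FPKM, with summed levels of 1820 to 3180 FPKM per library. None of 13 mesenchymal and endothelial markers did, with sums of 0.277 to 2.24 FPKM. Of 13 immune markers in the table, Lyz2, Cd14 and Kit reached that mean, the other 10 summed to 1.3 to 1.9 FPKM per library, and S100a8 and Ncr1 were listed at 0 throughout. The immune sum without TNF was 33.0 to 38.8 FPKM in f/f and 27.2 to 30.1 FPKM in dIEC, without overlap. With TNF it was 43.2 to 52.3 FPKM in f/f and 39.5 to 45.3 FPKM in dIEC. Lyz2 averaged 20.3 FPKM in dIEC against 27.8 FPKM in f/f without TNF, and 25.6 against 34.1 FPKM with it. Kit was also lower in dIEC, at 2.9 against 3.5 FPKM and 4.96 against 6.11 FPKM. Cd14 was higher there, at 3.37 against 2.98 FPKM and 9.59 against 6.79 FPKM. The part of these markers in the results below was not tested. In bulk libraries fewer cells of a type and less RNA per cell cannot be told apart. Atg16l1 was lower in dIEC than in f/f, at 5.64 ± 0.573 against 8.97 ± 0.472 FPKM unstimulated and 7.24 ± 0.414 against 10.4 ± 0.679 FPKM with TNF (SD, n = 4), and these values cover the whole gene, deleted part or not.

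A set of 4 libraries stood apart from the rest on the second principal component: library 1 of f/f and library 4 of dIEC, each with and without TNF. Within their groups they were low in GC-rich genes, with a rank correlation across genes between deviation and GC content of -0.804 to -0.727, against 0.0957 to 0.709 in the other 12 libraries. Each deviation was taken from the mean of all 4 libraries of its group, so the opposite sign in the other 12 follows in part from that. The results of Ier2 and Dusp5, which rest most on the 4 libraries that stood apart, are given with and without those 4. So are the genotype differences of Klf6 and Ier3.

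Without TNF the members ran from under 1 to about 15 FPKM. In unstimulated f/f organoids Ier2 (14.8 FPKM), Klf6 (13.0 FPKM) and Zfp36 (12.5 FPKM) led, with overlapping ranges between neighbours. Dusp16 followed at 9.59 FPKM, below all values of Zfp36 and above all of Dusp5. Dusp5 (6.35 FPKM) and Dusp6 (5.02 FPKM) overlapped, as did Dusp4 (3.7 FPKM) with Ier3 (2.95 FPKM) and Ier3 with Egr1 (2.6 FPKM). Dusp1 was lowest at 0.845 FPKM. The same order held in unstimulated dIEC. With TNF the order changed: Zfp36 came first in both genotypes, at 28.4 FPKM in f/f and 29.3 FPKM in dIEC, Ier3 moved up to rank 4 and Dusp1 stayed last, its range overlapping that of Egr1.

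**Figure D1:**
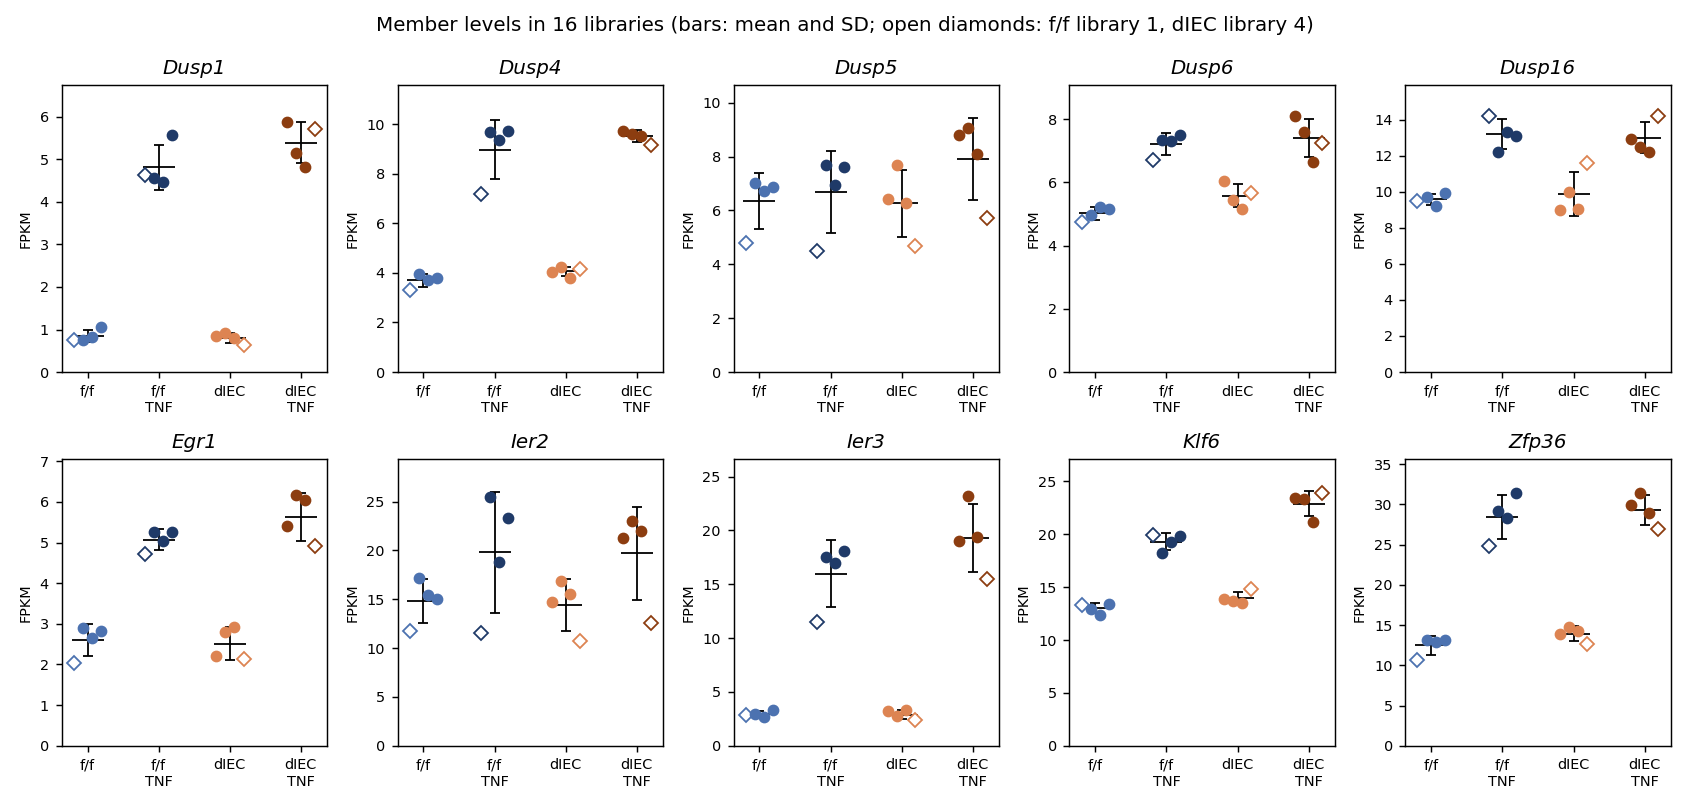
FPKM of the 10 members in every library, 1 panel per gene with its own linear axis from 0; each point is a library, the bars give the mean and SD of 4, and open diamonds mark the 4 libraries that stood apart. The TNF points lie above the unstimulated points of the same genotype for 8 genes, while those of Dusp5 and Ier2 overlap.

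TNF raised 8 of the 10 members in f/f and the same 8 in dIEC: Dusp1, Dusp4, Dusp6, Dusp16, Egr1, Ier3, Klf6 and Zfp36. None fell. Ier3 and Dusp1 rose by 5.43 to 6.74-fold in FPKM, Zfp36, Dusp4 and Egr1 about doubled, and Klf6, Dusp6 and Dusp16 rose by less. Dusp5 and Ier2 did not pass the test, which used no replicate block. With the replicate number as a block, both were called in dIEC, as given below. Calls are Benjamini-Hochberg adjusted p under 0.05 from limma over 11097 genes on log2(FPKM + 1), a scale that understates the change of low genes. TNF moved much of the transcriptome: 47.2% of all genes were called in f/f (26.9% higher and 20.3% lower) and 53.1% in dIEC (33.4% higher). The 8 members' groups with and without TNF did not overlap, which held for 44% of all genes in f/f (24.1% higher with TNF) and 42.5% in dIEC (26.2% higher). Higher genes made up 57.0% of the calls in f/f and 62.8% in dIEC, which became 48.8% and 49.1% with median-of-ratios scaling and 45.2% and 46.5% with quantile normalization. The median log2 change of the members was 0.65 in f/f and 0.80 in dIEC, against 0.05 and 0.09 over all genes; since the members were picked with such results known, this is a description. Dusp1 averaged under 1 FPKM without TNF and entered the test only through the TNF groups.

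Among the phosphatases, Dusp1 changed most. It encodes a nuclear phosphatase that acts on p38, JNK and ERK, and lies on chromosome 17 from 26505590 to 26562128, minus strand (GENCODE vM21, GRCm38, the build mm10 of the files). The RefSeq start behind the promoter shown above lies inside this span, not at its upper end, so the annotations place the start of Dusp1 differently. Dusp1 stood at 0.751, 0.752, 0.82 and 1.06 FPKM in f/f libraries 1 to 4 and at 4.63, 4.56, 4.46 and 5.58 FPKM with TNF. In dIEC it stood at 0.838, 0.919, 0.8 and 0.641 FPKM, and at 5.87, 5.14, 4.83 and 5.72 FPKM with TNF. All 8 TNF libraries lay above all 8 unstimulated ones. The means rose 5.69-fold in f/f (log2 change 1.65, SE 0.0781, limma adjusted p = 3.45e-10) and 6.74-fold in dIEC (1.83, adjusted p = 8.83e-11). The annotated span of Dusp1 overlaps that of Ergic1 on the opposite strand, and whether their exons overlap was not examined. Strand use is not stated, so reads from any stretch they share cannot be told apart.

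Dusp4 encodes a second nuclear phosphatase of ERK, JNK and p38 and lies on chromosome 8 from 34807297 to 34819894. It stood at 3.33, 3.95, 3.71 and 3.79 FPKM in f/f, and at 7.18, 9.68, 9.35 and 9.71 FPKM with TNF. In dIEC the values were 4.05, 4.23, 3.81 and 4.15 FPKM, and 9.71, 9.62, 9.54 and 9.15 FPKM with TNF. The groups with and without TNF did not overlap, and the lowest TNF value was f/f library 1. The rise was 2.43-fold in f/f (log2 change 1.08, SE 0.0738, limma adjusted p = 2.33e-08) and 2.34-fold in dIEC (1.05, adjusted p = 2.25e-08).

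Dusp6 and Dusp16 rose by smaller steps. Dusp6, a cytoplasmic phosphatase selective for ERK on chromosome 10 from 99263231 to 99267489, stood at 4.75, 4.97, 5.22 and 5.16 FPKM in f/f and at 6.7, 7.35, 7.31 and 7.5 FPKM with TNF. In dIEC it stood at 6.03, 5.44, 5.17 and 5.67 FPKM, and at 8.09, 7.6, 6.66 and 7.25 FPKM with TNF. TNF and unstimulated libraries did not overlap in either genotype. The rise was 1.44-fold in f/f (log2 change 0.45, SE 0.0565, limma adjusted p = 1.57e-05) and 1.33-fold in dIEC (0.35, adjusted p = 0.000113). Dusp16, whose product acts on JNK and p38, lies on chromosome 6 from 134715468 to 134792625 on the minus strand and overlaps the antisense gene Gm36328. It stood at 9.47, 9.7, 9.23 and 9.93 FPKM in f/f and at 14.2, 12.2, 13.3 and 13.1 FPKM with TNF. In dIEC it stood at 8.97, 9.97, 9.04 and 11.6 FPKM, and at 12.9, 12.5, 12.2 and 14.2 FPKM with TNF. The groups did not overlap, and library 4 was the highest of both dIEC groups. Its rise was 1.38-fold in f/f (log2 change 0.42, SE 0.0698, limma adjusted p = 0.000189) and 1.31-fold in dIEC (0.36, adjusted p = 0.000512).

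Dusp5, a nuclear phosphatase selective for ERK, was not called in either genotype without a replicate block, unlike the other 4. It lies on chromosome 19 from 53529109 to 53542431 and overlaps an antisense gene, AC137853.2. The f/f values were 4.79, 7.01, 6.73 and 6.87 FPKM, and 4.48, 7.7, 6.94 and 7.61 FPKM with TNF. The dIEC values were 6.44, 7.68, 6.26 and 4.68 FPKM, and 8.8, 9.07, 8.09 and 5.72 FPKM with TNF. The groups overlapped, and the lowest value of every group was one of the libraries that stood apart. The log2 change was 0.05 in f/f (95% interval -0.32 to 0.42, limma adjusted p = 0.831) and 0.29 in dIEC (-0.08 to 0.67, adjusted p = 0.168); in f/f its sign turned under median-of-ratios scaling, quantile normalization and removal of the GC trend. Between libraries of the same number, TNF over none was 1.37, 1.18, 1.29 and 1.22-fold in dIEC and 0.934, 1.1, 1.03 and 1.11-fold in f/f. With the replicate number as a block, Dusp5 was called in dIEC (limma adjusted p = 0.000269) but not in f/f (adjusted p = 0.324).

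Ier3 had the largest change of the members on the log2(FPKM + 1) scale, while Dusp1 had the larger fold in FPKM in both genotypes. Its small product is known for effects on cell survival under stress, and the gene lies on chromosome 17 from 35821684 to 35822923, with the NF-kB matches shown above in its promoter. Ier3 stood at 2.89, 2.93, 2.63 and 3.35 FPKM in f/f and at 11.5, 17.5, 17.0 and 18.1 FPKM with TNF. In dIEC it stood at 3.19, 2.73, 3.28 and 2.41 FPKM, and at 19.0, 23.2, 19.4 and 15.5 FPKM with TNF. The groups with and without TNF lay far apart, and the lowest TNF value of each genotype was a library that stood apart. The rise was 5.43-fold in f/f (log2 change 2.09, SE 0.135, limma adjusted p = 1.23e-08) and 6.64-fold in dIEC (2.37, adjusted p = 2.24e-09). Among the 11097 genes it ranked 50th from the top by log2 change of (FPKM + 1) in f/f and 46th in dIEC; Dusp1 ranked 83rd and 85th.

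Zfp36, the decay factor, lies on chromosome 7 from 28376784 to 28380253 on the minus strand and overlaps the antisense gene Gm44710. It stood at 10.7, 13.1, 12.9 and 13.1 FPKM in f/f and at 24.8, 29.2, 28.3 and 31.4 FPKM with TNF. In dIEC it stood at 13.9, 14.8, 14.3 and 12.6 FPKM, and at 29.9, 31.4, 28.9 and 27.0 FPKM with TNF. No TNF library overlapped an unstimulated one. The rise was 2.28-fold in f/f (log2 change 1.13, SE 0.078, limma adjusted p = 2.61e-08) and 2.11-fold in dIEC (1.02, adjusted p = 5.95e-08).

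The transcription factors Egr1 and Klf6 rose in both genotypes. Egr1, a zinc finger factor induced through serum response factor in many cells, lies on chromosome 18 from 34859823 to 34864984. Its values were 2.04, 2.89, 2.64 and 2.82 FPKM in f/f, and 4.71, 5.26, 5.05 and 5.27 FPKM with TNF. In dIEC they were 2.2, 2.79, 2.92 and 2.13 FPKM, and 5.4, 6.17, 6.04 and 4.92 FPKM with TNF. The groups did not overlap, with a rise of 1.95-fold in f/f (log2 change 0.76, SE 0.0925, limma adjusted p = 1.09e-05) and 2.24-fold in dIEC (0.92, adjusted p = 1.13e-06). Klf6, a Krüppel-like zinc finger factor on chromosome 13 from 5861482 to 5870394, stood at 13.3, 12.9, 12.4 and 13.4 FPKM in f/f and at 19.9, 18.2, 19.3 and 19.8 FPKM with TNF. In dIEC it stood at 13.9, 13.7, 13.5 and 14.8 FPKM, and at 23.4, 23.3, 21.2 and 23.9 FPKM with TNF. Its 4 groups were separate from each other, the only such member. How many of all genes had 4 separate groups was not computed. Between genotypes, 7.02% of all genes did not overlap without TNF and 13.9% with it. The rise of Klf6 was 1.49-fold in f/f (log2 change 0.54, SE 0.0459, limma adjusted p = 2.55e-07) and 1.64-fold in dIEC (0.68, adjusted p = 1.53e-08).

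Ier2, a small nuclear protein gene on chromosome 8 from 84661331 to 84662852, had the widest spread. Its f/f values were 11.8, 17.2, 15.4 and 15.0 FPKM, and 11.5, 25.5, 18.8 and 23.3 FPKM with TNF. Its dIEC values were 14.7, 16.9, 15.5 and 10.7 FPKM, and 21.3, 23.0, 22.0 and 12.6 FPKM with TNF. The groups overlapped through f/f library 1 and dIEC library 4, which were lowest with and without TNF. The log2 change was 0.35 in f/f (SE 0.228, 95% interval -0.14 to 0.84, limma adjusted p = 0.228) and 0.41 in dIEC (-0.08 to 0.89, adjusted p = 0.149). Between libraries of the same number, TNF over none was 0.979, 1.48, 1.22 and 1.56-fold in f/f and 1.45, 1.36, 1.41 and 1.18-fold in dIEC.

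**Figure D2:**
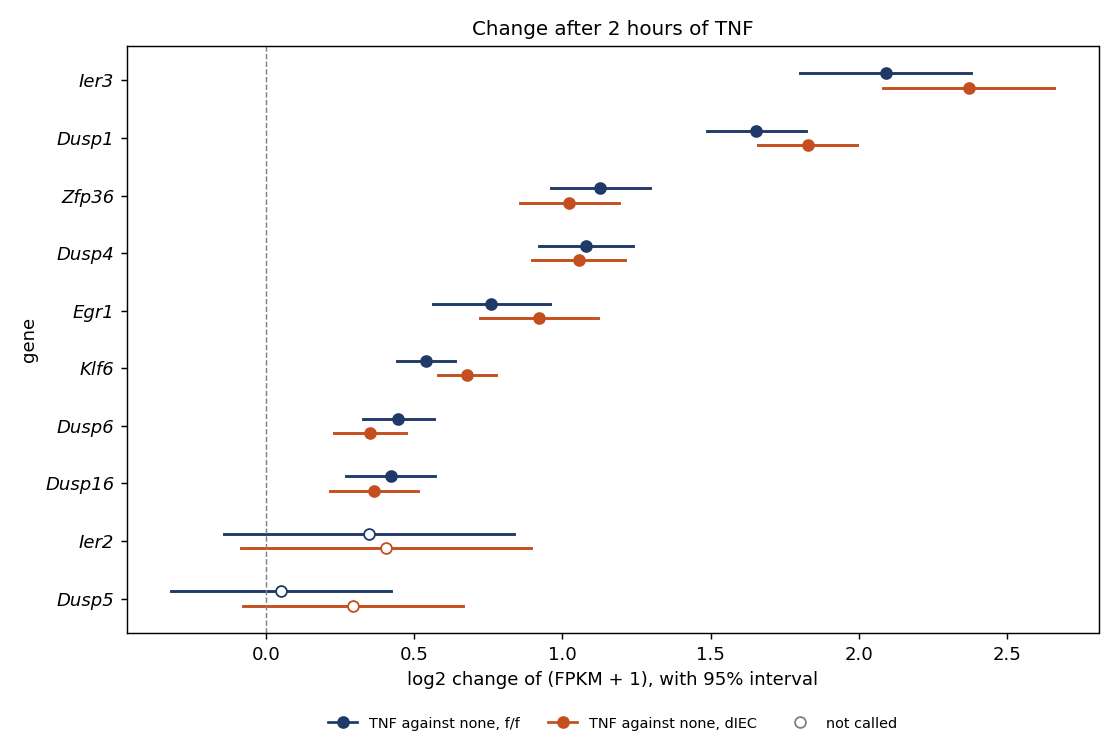
Log2 change of (FPKM + 1) with TNF against none for each member in f/f and in dIEC, with 95% intervals from limma; filled points passed the test over all genes and open points did not. The intervals of Ier2 and Dusp5 cross 0 in both genotypes, and Ier3 has the largest change on this scale, at 2.09 in f/f and 2.37 in dIEC.

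Ier2 was called in both genotypes and Dusp5 in dIEC once the libraries that stood apart were left out. Without those 4 libraries, the log2 change of Ier2 was 0.47 in f/f (limma adjusted p = 0.00106) and 0.47 in dIEC (adjusted p = 0.000922), and that of Dusp5 was 0.31 in dIEC (adjusted p = 0.0015) and 0.10 in f/f (adjusted p = 0.229). Calls over all genes rose too, from 47.2% to 62.0% in f/f and from 53.1% to 69.8% in dIEC. Leaving out f/f TNF library 1 alone gave Ier2 0.57 in f/f (adjusted p = 0.0252), and leaving out dIEC TNF library 4 alone gave Ier2 0.60 (adjusted p = 0.0297) and Dusp5 0.42 (adjusted p = 0.0464) in dIEC. In dIEC, libraries of the same number deviated together, though the labels state no pairing. With the replicate number as a block, the changes there stayed at 0.41 for Ier2 (adjusted p = 0.00344) and 0.29 for Dusp5 (adjusted p = 0.000269). All 10 members were then called in dIEC, which is a description, since the pairing was read from these same data. This block called 70.8% of all genes in dIEC. With the GC trend of each library removed and no block, neither gene was called: Ier2 stood at 0.16 in f/f (adjusted p = 0.21) and 0.24 in dIEC (adjusted p = 0.0617), and Dusp5 at -0.07 in f/f (adjusted p = 0.566) and 0.17 in dIEC (adjusted p = 0.144). The trend was taken from deviations from the mean of all 16 libraries. Its removal therefore also takes out any GC-linked part of the TNF response itself. With the trend removed and the block kept, the values in dIEC were 0.24 for Ier2 (adjusted p = 0.00784) and 0.17 for Dusp5 (adjusted p = 0.00228), and 70.6% of all genes were called there.

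The members' offset in the libraries that stood apart went with their GC content. Ier2, with a GC content of 60.9% in its longest transcript, was lower there by a mean log2 difference of -0.64 from the other 3 libraries of its group, and Dusp5, at 56.7%, by -0.51. Ier3 followed at -0.31, Egr1 and Zfp36 at -0.21 and Dusp4 at -0.14. Dusp1 at -0.06 and Dusp6 at -0.05 lay near 0, while Klf6, at 42.4% GC, was higher by 0.07 and Dusp16, at 47.8%, by 0.14. The kept genes had a median GC content of 49.4%. Over the 10 members, which share these libraries, Spearman's rho between GC content and offset was -0.903, given as a description. A library that stood apart was the lowest of its group in 26 of the 40 combinations of member and group and the highest in 6, and in all 4 groups it was lowest for Dusp5, Egr1, Ier2 and Zfp36.

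**Figure D3:**
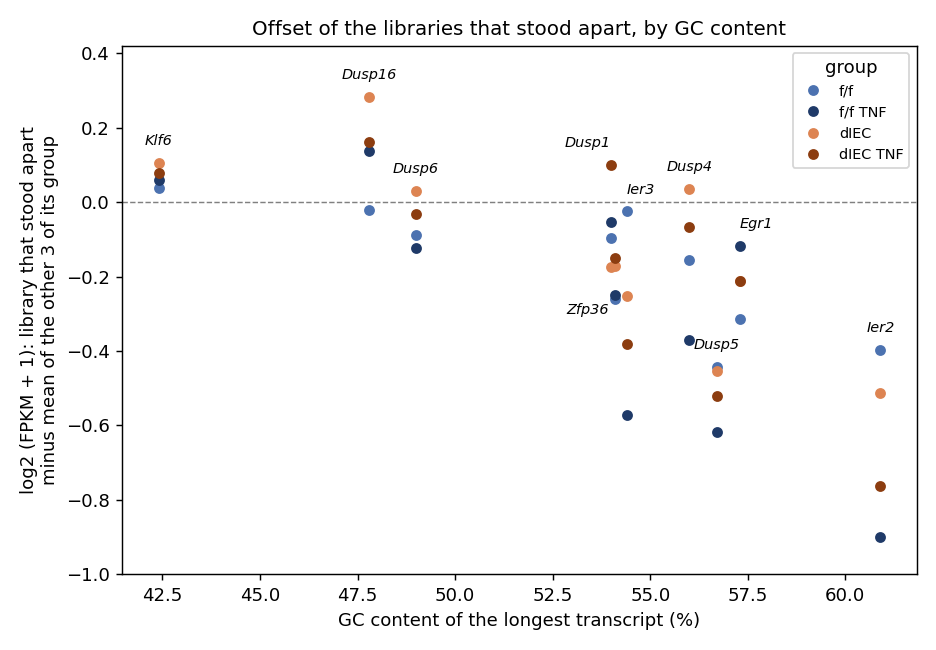
Offset of each library that stood apart from the mean of the other 3 in its group, as a log2 difference of (FPKM + 1), against the GC content of the longest transcript; each point is a member in 1 of the 4 groups. Ier2 and Dusp5 lie lowest, at mean offsets of -0.64 and -0.51, and Dusp16 and Klf6 lie at 0.14 and 0.07.

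Genotype made little measurable difference to the members without TNF. None of 10 was called between unstimulated dIEC and f/f by limma, against 2.32% of all genes. At an unadjusted p under 0.05 there was 1, Dusp6, with a log2 difference of 0.13 (limma adjusted p = 0.441). The values of Klf6 did not overlap, at 12.4 to 13.4 FPKM in f/f and 13.5 to 14.8 FPKM in dIEC, which gave the smallest p that an exact permutation test of 4 against 4 allows (0.0286, two-sided). Its limma adjusted p was 0.478, and 7.02% of all genes had groups that did not overlap. The widest 95% intervals were those of Ier2, -0.53 to 0.45, and Dusp5, -0.39 to 0.35. Without the 4 libraries that stood apart they narrowed to -0.22 to 0.19 for Ier2 and -0.16 to 0.13 for Dusp5, and neither was called.

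With TNF, Klf6 was higher in dIEC than in f/f. It averaged 22.9 ± 1.19 FPKM in dIEC against 19.3 ± 0.803 FPKM in f/f (SD, n = 4), 1.19-fold, with every dIEC library above every f/f library. The log2 difference was 0.24 (SE 0.0459, 95% interval 0.14 to 0.33, limma adjusted p = 0.00476; exact permutation p = 0.0286). It was the only member called, against 6.5% of all genes (3.79% higher in dIEC), and 13.9% of genes had groups that did not overlap. The call was lost with median-of-ratios scaling (0.22, limma adjusted p = 0.0524) and with quantile normalization (0.20, adjusted p = 0.0881), and the adjusted p ranged from 0.000586 to 0.0881 over all alternatives. Without the 4 libraries that stood apart it was 0.23 (adjusted p = 0.00709). Ier3 averaged 19.3 ± 3.15 FPKM in dIEC against 16.0 ± 3.07 FPKM in f/f, a log2 difference of 0.26 whose interval ran from -0.03 to 0.55 (limma adjusted p = 0.345), and 0.21 (adjusted p = 0.124) without those libraries. Dusp5 stood at 0.22 (adjusted p = 0.61) and without them at 0.20 (adjusted p = 0.0761), and Ier2 at 0.02 (adjusted p = 0.997) and without them at -0.02 (adjusted p = 0.928). For Zfp36 the difference was 0.05 (-0.12 to 0.21) and for Dusp6 0.03 (-0.09 to 0.15).

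Without a replicate block, the TNF response was not shown to differ between genotypes for any member. For the difference of the responses, dIEC minus f/f, limma called 0 of 10 members, with 0 at an unadjusted p under 0.05, against 3.29% of all genes. Ier3 had the largest value, 0.28 (95% interval -0.13 to 0.69, limma adjusted p = 0.636). Klf6 came closest to the threshold, at 0.14 (unadjusted p = 0.0507, limma adjusted p = 0.381), so its higher level in dIEC with TNF was not accompanied by a called difference in response. The replicate number as a block was a pairing read from these same data, which held in dIEC by the correlations but not for every number in f/f. With it 1 member was called: Dusp5, at 0.24 (limma adjusted p = 0.0394). The block called 11.1% of all genes for this difference, so 1 of 10 members lay near that share. Without the 4 libraries that stood apart and with no block, Dusp5 was 0.22 (adjusted p = 0.189).

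**Figure D4:**
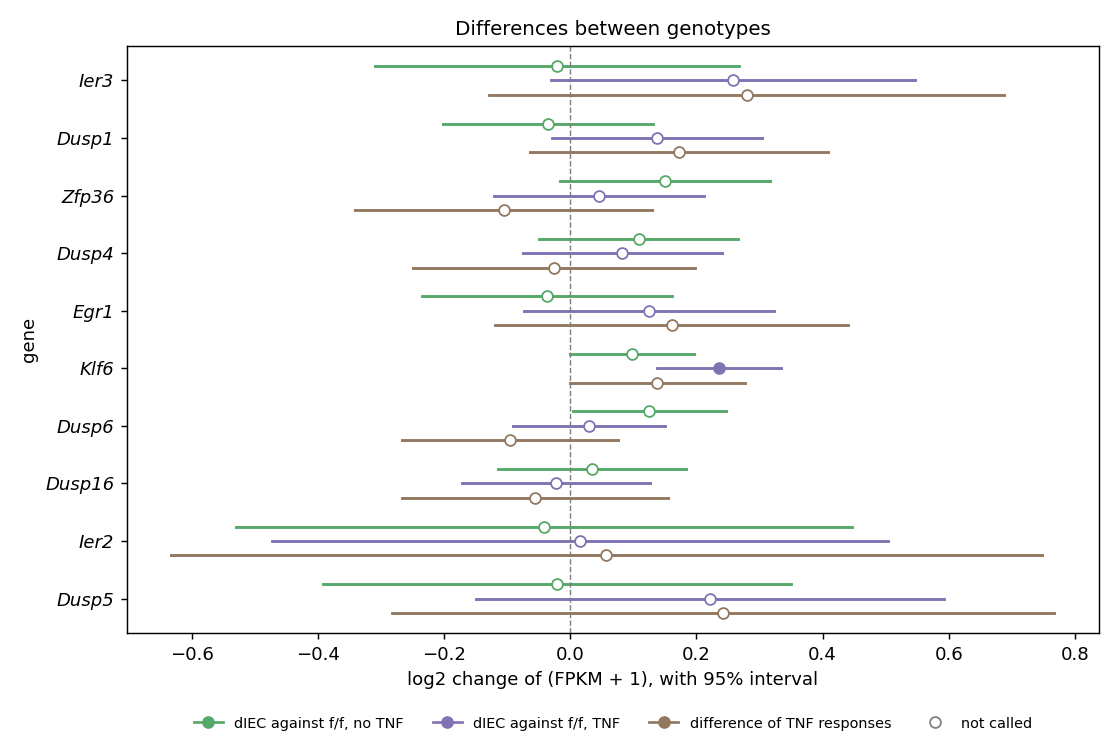
Log2 difference of (FPKM + 1) between dIEC and f/f without TNF, with TNF, and the difference of the TNF responses, for each member with 95% intervals from limma; only the filled point passed the test over all genes. Klf6 with TNF, at 0.24, is that point, and the intervals of Ier2 and Dusp5 are the widest.

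The rest of the phosphatase family moved in both directions with TNF. Of 18 other dual-specificity phosphatases 11 reached a mean of 1 FPKM, and 5 rose and 2 fell in f/f, 6 rose and 3 fell in dIEC, with a median log2 change of 0.14 and 0.19. That is 45.5% higher and 18.2% lower in f/f, where 26.9% and 20.3% of all genes were, and 54.5% higher in dIEC, where 33.4% of all genes were. Dusp8, a JNK phosphatase, rose from 1.14 to 4.14 FPKM in f/f (log2 change 1.26, limma adjusted p = 3.77e-10) and from 1.31 to 5.55 FPKM in dIEC (adjusted p = 4.43e-11). With TNF it was higher in dIEC than in f/f (0.35, adjusted p = 0.00203). Dusp14 rose from 1.62 to 6.16 FPKM in f/f (1.46, adjusted p = 1.19e-07) and Dusp3 from 2.0 to 4.26 FPKM (0.81, adjusted p = 3.49e-08). Dusp12 fell from 13.0 to 9.1 FPKM in f/f (-0.47, adjusted p = 1.92e-05) and from 14.7 to 7.93 FPKM in dIEC (-0.81, adjusted p = 5.34e-08). Its response differed between genotypes by a value just under the threshold (-0.34, adjusted p = 0.0485). Values under the alternative settings were kept for the members only, so whether the genotype calls of Dusp8 and Dusp12 hold under them is not known. Dusp10, a phosphatase of JNK and p38, averaged 0.856 FPKM over the 16 libraries, below the minimum, and was not tested. It averaged 0.404 FPKM in f/f and 1.15 FPKM with TNF, and 0.43 and 1.45 FPKM in dIEC.

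Of 40 other immediate early genes 29 were tested, of which 23 rose and none fell in f/f, and 23 rose and 1 fell in dIEC; their median log2 change was 0.69 and 0.65. The share called higher was 79.3% in each genotype, against 26.9% of all genes in f/f and 33.4% in dIEC. Atf3, a stress-induced transcription factor, rose from 2.41 to 13.3 FPKM in f/f (2.06, limma adjusted p = 6.86e-11) and from 2.8 to 19.1 FPKM in dIEC (2.41, adjusted p = 1.15e-11). Maff, Bhlhe40 and Klf10, also transcription factors, rose in f/f by 1.53, 1.49 and 1.10 on the log2 scale. Between genotypes with TNF, 4 were higher (13.8%) and 1 was lower (3.45%) in dIEC. Of all genes 6.5% were called there, 3.79% of them higher in dIEC as a share of all genes. Fos, the AP-1 subunit, stood at 8.55 FPKM in dIEC against 6.27 FPKM in f/f (0.40, adjusted p = 0.00235), and Plaur, the urokinase receptor, at 7.73 against 4.13 FPKM (0.76, adjusted p = 0.00336), and the response of Plaur was larger in dIEC (0.97, adjusted p = 0.0134). Sgk1, a serum-induced kinase, was the lower one, at 1.23 against 2.55 FPKM (-0.67, adjusted p = 2.59e-05), and its response differed in the opposite direction (-0.71, adjusted p = 0.000985). Whether these genotype calls hold under the alternative settings is not known, because those values were kept for the members only.

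Of 33 tested MAP kinases and their activating kinases, 10 rose and 2 fell in f/f and 11 rose and 2 fell in dIEC, with median log2 changes of 0.15 and 0.19. The shares called higher, 30.3% in f/f and 33.3% in dIEC, lay near those of all genes, 26.9% and 33.4%. Map3k1, which feeds JNK and ERK, rose from 4.05 to 7.7 FPKM in f/f (0.79, limma adjusted p = 9.12e-09). Of 11 tested ERK feedback regulators other than phosphatases, 6 rose and 1 fell in f/f and 8 rose and 1 fell in dIEC; the shares called higher were 54.5% and 72.7%, and Phlda1 rose from 12.1 to 30.4 FPKM in f/f (1.25, adjusted p = 1.99e-07). Of 8 serum response and ternary complex factors, 6 rose and none fell in f/f, and 7 rose and 1 fell in dIEC. Elk4 went from 4.44 to 6.1 FPKM in f/f (0.38, adjusted p = 0.000414).

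Of 18 tested factors that act on AU-rich messages, the group of Zfp36, 8 rose in f/f (44.4%) and 13 in dIEC (72.2%), and none fell. Over all genes 26.9% were called higher in f/f and 33.4% in dIEC. None of the 18 was called for the difference of the responses, against 3.29% of all genes. The Zfp36 paralog Zfp36l1 rose from 18.4 to 31.0 FPKM in f/f (0.72, limma adjusted p = 8.03e-08), and Zc3h12a, an endonuclease of inflammatory messages, from 3.1 to 9.59 FPKM (1.35, adjusted p = 2.32e-06). As a reference for the size of the response, 8 of 10 early TNF genes reached the minimum, 3 of them (Icam1, Nfkbie and Tnf) through the TNF groups only, so their count and median are not given as support. Ccl20, a chemokine, went from 8.63 to 244.0 FPKM in f/f, and Nfkbia, the NF-kB inhibitor, went from 17.2 to 183.0 FPKM in f/f.

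By pattern over the 16 libraries, the gene most like each member in Pearson correlation of log2(FPKM + 1) was Nedd9 for Dusp1 (0.995), Mxd1 for Zfp36 (0.996), Ifnlr1 for Dusp4 (0.995), Nfkb2 for Ier3 (0.994) and Rnd3 for Klf6 (0.99). For Egr1 it was Sept8 (0.992), for Dusp16 Fmnl2 (0.988) and for Dusp6 Tnfsf9 (0.976). For the members with a GC-linked spread it was Cactin for Ier2 (0.985) and Vasp for Dusp5 (0.979). These are descriptions, since all genes share the 16 libraries and the same 2 treatments.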

How the data were processed

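RNA was sequenced from 16 organoid libraries, 4 per group by the titles of the labels. The authors deposited 1 FPKM value per gene and library; TopHat2 2.1.1, Cufflinks 2.2.1 and Cuffdiff and mm10 appear, without order, per the submitters' processing notes. Read totals, strand use and the handling of shared reads are not stated, so no counting interval is given. The authors' p-value columns were not used.

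limma 3.58.1 in R 4.3.3 was fitted to log2(FPKM + 1) with 1 mean per group and a mean-variance trend (12 residual and 2.52 prior degrees of freedom), over the 11097 rows averaging 1 FPKM or more; 12750 rows fell below. The 5 two-sided contrasts were TNF against none per genotype, genotype per treatment, and the difference of responses, with Benjamini-Hochberg adjusted p under 0.05 over all kept rows. The members and lists were chosen with earlier results of these data known. Up to 4 genes per list and contrast could be named, by smallest adjusted p; Dusp10 and Nfkbie were named after their values were seen.

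Libraries of the same number deviated together in dIEC with and without TNF (r 0.253, 0.293, 0.118 and 0.419), so the numbers were taken to pair those samples. The labels state no pairing, so it was read from the same data that the block was fitted to. In f/f 3 of 4 numbers did and 1 did not (-0.03 to 0.321), and across genotypes they did not (-0.166 to 0.166), so neither was taken as paired. For the TNF contrasts and the difference of responses, the block was the number within each genotype. For the genotype contrasts it was the number shared across genotypes, a match that the correlations did not bear out. Alternatives changed the pseudocount (0.1, 5), the minimum (none, 5 FPKM), the scaling, the GC trend, sample weights, the block and the libraries used. Promoters and gene positions come from RefSeq and GENCODE vM21.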

Additional observations from a re-analysis of the deposited data

Results flagged for a closer look

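In 6 of 40 combinations of member and group, 1 library lay farther from the other 3 than Dixon's 95% critical value for 4 values allows; chance would mark about 1 in 20. Dusp1 in f/f with TNF was highest in library 4, at 5.58 FPKM. Dusp4 in f/f with TNF was lowest in library 1, at 7.18 FPKM, and so was Ier3, at 11.5 FPKM. In unstimulated f/f, library 1 was lowest for Dusp5, at 4.79 FPKM, and for Zfp36, at 10.7 FPKM. Ier2 in dIEC with TNF was lowest in library 4, at 12.6 FPKM. Of the 6 values, 5 came from the libraries that stood apart, all 5 of them low and in genes with a GC content of 54.1% or more.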

How the results depend on the processing

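Leaving out 1 library at a time, the members called numbered 8 to 9 for TNF in f/f, 8 to 10 for TNF in dIEC, 0 to 0 between genotypes without TNF, 1 to 1 with TNF and 0 to 0 for the difference of responses. Under the other alternatives 54 of 59 counts of called members stayed within 1.5 times. The exceptions were dIEC against f/f with TNF, with 0 called under median-of-ratios scaling, 0 under quantile normalization and 2 with sample weights (Klf6 and Ier3, the latter 0.25, limma adjusted p = 0.0431), and the difference of responses, with 1 called under the replicate block and 1 under the block with the GC trend removed, Dusp5 both times (0.24, limma adjusted p = 0.0394, and 0.25, adjusted p = 0.0185). In f/f, where 3 of 4 numbers deviated together and 1 did not, the block gave Ier2 0.35 (adjusted p = 0.00866; with the GC trend removed too, 0.16, adjusted p = 0.0486); the block changed no call of a member beyond those given. Of 580 values of single members under these alternatives, 15 passed the threshold newly and 2 no longer did, both of them Klf6 between genotypes with TNF; sample weights also called Ier2 in both genotypes and Dusp5 in dIEC. With a minimum of 5 FPKM, Dusp1 and Egr1 were not tested and 6 members were called for TNF.

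Signs turned only for small uncalled differences; the cause was not tested. Dusp5 with TNF in f/f was -0.0004 under median-of-ratios scaling, -0.068 under quantile normalization and -0.072 with the GC trend removed, with and without the block. Without TNF, dIEC against f/f was 0.005 for Ier3 under quantile normalization, 0.10 with sample weights and 0.036 without the 4 libraries that stood apart, and for Dusp16 -0.043 and -0.042 under the last pair of settings. With TNF it was -0.018 for Ier2 under quantile normalization and also -0.018 without the 4 libraries. The difference of responses without them was 0.014 for Dusp16 and -0.0059 for Ier2. Leaving out 1 library, the ranges that crossed 0 were -0.058 to 0.21 for Dusp5 with TNF in f/f; without TNF between genotypes -0.067 to 0.018 for Dusp1, -0.037 to 0.074 for Dusp16, -0.13 to 0.092 for Dusp5, -0.11 to 0.017 for Egr1, -0.14 to 0.087 for Ier2 and -0.067 to 0.042 for Ier3; with TNF -0.063 to 0.013 for Dusp16, -0.0099 to 0.12 for Dusp4, -0.0085 to 0.074 for Dusp6, -0.21 to 0.21 for Ier2 and -0.017 to 0.094 for Zfp36; and for the difference -0.097 to 0.015 for Dusp16, -0.12 to 0.013 for Dusp4 and -0.17 to 0.25 for Ier2.

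Over all genes, calls between genotypes without TNF numbered 258, against 1781 with sample weights, 424 with the GC trend removed (455 with the block), 709 without the 4 libraries, 166 with a minimum of 5 FPKM, 136 from the 2 groups alone and as few as 139 without 1 library. With TNF they numbered 721, against 2556, 1133 (1363), 1505, 449 and, with no minimum, 1082. For the difference they numbered 365, against 1920, 580 (1362), 967, 195, 1231 with the block and 240 without f/f library 4. In the counts between genotypes the block matched numbers across genotypes, which the correlations did not bear out. For TNF against none, 47.2% of all genes were called in f/f and 53.1% in dIEC. These shares became 68.7% and 73.4% with sample weights, 66.1% and 70.8% with the block, and 62.0% and 69.8% without the 4 libraries. The unknown depth limits what can be said of Dusp1, at under 1 FPKM without TNF.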
